A study of Mus musculus with 4 samples.

Results

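The interleukin-6 (IL-6) family was examined through 10 genes fixed by symbol: the cytokine genes *Il6*, *Lif*, *Il11* and *Osm*, the receptor genes *Il6st*, *Osmr*, *Lifr* and *Il11ra1*, the transcription factor gene *Stat3* and the feedback inhibitor gene *Socs3*. All 10 were among the 45802 gene symbols of the table, and all 10 had a value in each of the 4 libraries, as did 14415 genes in total. Male mice 9 to 10 weeks old that carried a *Pdgfra*-driven, tamoxifen-inducible CreER and the mT/mG reporter were given 5 daily doses of tamoxifen (150 mg/kg). Hindlimb periosteal cells were taken 14 days later, expanded for 1 passage with 10 ng/mL bFGF and sorted as CD31-, CD45- and Ter119-. PDGFRα reporter+ cells (mGFP+) had recombined the reporter, PDGFRα reporter- cells (mTdtomato+) had not, and both populations shared genotype, tamoxifen and culture. There were 2 libraries of total RNA per population, and the labels give 3 to 6 mice as the pool behind each, whereas the study's methods give a different range. The reporter records *Pdgfra* promoter activity at the time of tamoxifen and not at harvest. The deposited headings number the libraries 2 and 3, and libraries are named here by population and that number.

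IL-6 family cytokines signal through gp130, the shared receptor chain encoded by *Il6st*. IL-6 and IL-11 bind their own α-receptors and then gp130, leukemia inhibitory factor (LIF) engages gp130 with the LIF receptor, and in mice oncostatin M (OSM) acts mainly through gp130 with the OSM receptor. Receptor-bound JAK kinases phosphorylate STAT3, which activates *Socs3*, whose product binds gp130 and shuts the signal off. In bone, osteoblast lineage cells respond to these cytokines, which are known to influence both bone formation and the production of the osteoclast factor RANKL.

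The shared receptor chain *Il6st* was the family gene that separated the populations with the least scatter, at 1.30-fold higher in PDGFRα reporter+ cells. *Osmr* and *Osm*, receptor and ligand of one axis, also lay higher in both PDGFRα reporter+ libraries than in both PDGFRα reporter- libraries, *Osmr* by a small margin and *Osm* at values near the low end of the table. *Il6*, *Lif* and *Il11* went in opposite directions in the libraries numbered 2 and 3, as did 53.1% of all genes. *Lifr*, *Il11ra1*, *Stat3* and *Socs3* differed most between the numbers, as did 65.2% of all genes. With limma and Benjamini-Hochberg adjustment over all 14415 genes, 0 of the 10 passed the threshold of 0.05 (0% of all genes did). Unadjusted, 0 of the 10 were below it, beside 0.909% of all genes. This fit counts differences between the numbers as spread within a population. With the number as a block, *Osm* and *Il6st* were below 0.05 unadjusted, as were 913 of the 14415 genes. After adjustment 0 of the 10 passed in that fit, and 29 of all genes did. Values are log2 expression values after quantile normalization by the authors, with a median of 1.48 and an upper quartile of 3.00 in each library. The linear unit is not stated, so levels were not ordered between genes, and sums over markers weight genes by their deposited values. A log2 fold change is PDGFRα reporter+ minus PDGFRα reporter-, and its standard error (SE) is from limma.

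**Figure D1:**
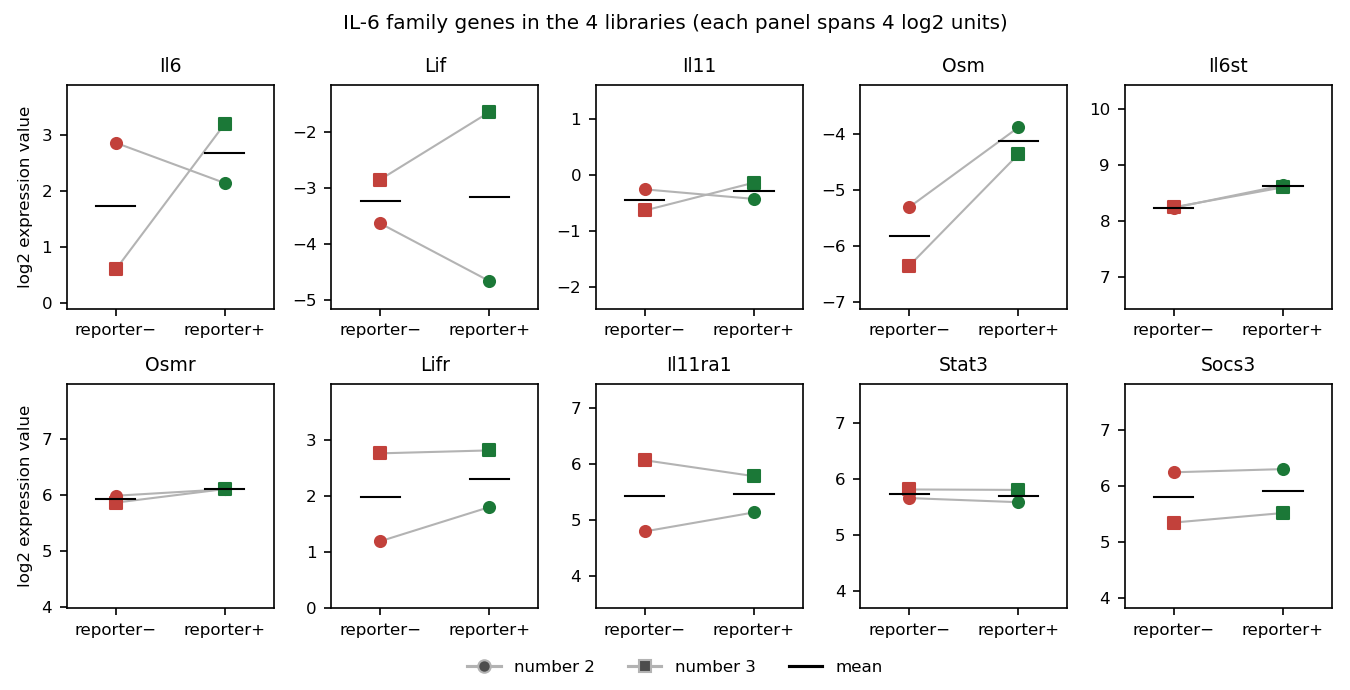
Log2 expression value (y axis, each panel spanning the same range of log2 units) of the 10 IL-6 family genes in PDGFRα reporter- (red) and PDGFRα reporter+ (green) libraries. Circles are libraries numbered 2, squares are libraries numbered 3, grey lines join libraries of the same number, and black bars are means of 2 libraries; *Il6st*, *Osmr* and *Osm* are the panels in which both green points lie above both red points.

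*Il6st* lies on chromosome 13 from 112464070 to 112506860 on the plus strand (RefSeq, GRCm38.p6). Its log2 values were 8.63 in PDGFRα reporter+ library 2, 8.59 in PDGFRα reporter+ library 3, 8.23 in PDGFRα reporter- library 2 and 8.24 in PDGFRα reporter- library 3. The 2 libraries of each population were nearly the same, and the populations did not overlap. The means were 8.61 ± 0.02 and 8.24 ± 0.01 (SD, n = 2), and the difference was 0.40 within number 2 and 0.35 within number 3. The log2 fold change was 0.38 (SE 0.22) and did not pass the test (limma, adjusted p = 1). The SE takes in the spread of other genes of like level. Their median SD within a population was 0.199 over the 500 genes nearest in mean, compared with at most 0.025 for *Il6st* itself. With a library left out, the log2 fold change stayed between 0.36 and 0.39. The 250 bases upstream of the start of *Il6st* (chr13:112463820-112464069, plus strand, GRCm38.p6, outside any GENCODE M21 transcript of the gene) are shown because this gene carried the most even difference of the family.
Il6st upstream: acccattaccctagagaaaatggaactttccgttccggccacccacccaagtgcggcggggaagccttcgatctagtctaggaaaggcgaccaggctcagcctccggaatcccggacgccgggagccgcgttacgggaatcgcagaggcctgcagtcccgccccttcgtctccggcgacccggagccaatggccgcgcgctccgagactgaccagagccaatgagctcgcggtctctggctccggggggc
This window held none of 5 motifs searched on both strands. They were the STAT element TTCNNNGAA, the AP-1 element TGANTCA, the cAMP response element TGACGTCA, the C/EBP element TTGCNNAA and the NF-kB element, and no matches in the family overlapped. Among 32851 RefSeq windows of the same 250 bases, they occurred in 7.02%, 6.75%, 1.55%, 9.56% and 0.356%, respectively.

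*Osmr* (chromosome 15, 6813568 to 6874968) encodes the chain that pairs with gp130 to bind oncostatin M. Its log2 values were 6.10 and 6.10 in PDGFRα reporter+ libraries 2 and 3, and 5.98 and 5.86 in PDGFRα reporter- libraries 2 and 3. Both PDGFRα reporter+ values lay above both PDGFRα reporter- values, by 0.11 within number 2 and 0.24 within number 3. The log2 fold change was 0.18 (SE 0.15, limma, adjusted p = 1), which is 1.13-fold. With a library left out it ranged from 0.12 to 0.24. Its profile over the 4 libraries was the closest to that of *Il6st* within the family, with a Euclidean distance of 0.221 between the profiles after each was centered on its own mean.

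*Osm* (chromosome 11, 4236785 to 4241026) encodes oncostatin M, a cytokine made mostly by myeloid and T cells. It had log2 values of -3.89 and -4.37 in PDGFRα reporter+ libraries 2 and 3, and of -5.31 and -6.35 in PDGFRα reporter- libraries 2 and 3. Both PDGFRα reporter+ values were the higher ones, by 1.42 within number 2 and 1.99 within number 3. The log2 fold change of 1.71 (SE 0.72, limma, adjusted p = 1) was the largest of the family. At this level values scattered widely, with a median SD within a population of 0.874 over the 500 genes nearest in mean. With a pseudocount of 1 on the linear scale the log2 fold change of *Osm* was 0.05, and with a library left out it ranged from 1.18 to 2.23. Both ends of this range came from leaving out a PDGFRα reporter- library. *Il6st*, *Osmr* and *Osm* made up 3 of 10 family genes with both PDGFRα reporter+ libraries on top, beside 7.59% of all genes, and 0 of 10 had them at the bottom, beside 8.10% of all genes. In either direction these were 3 of 10, beside 15.7% of all genes. *Il6* and *Osm* were the 2 members above 2 SD of all log2 fold changes (0.83), beside 3.36% of all genes, and 0 were below the lower limit, beside 2.80%.

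Most macrophage markers had higher values in the same population as *Osm*, although with limma 0 of 20 passed after adjustment and 6 were below 0.05 unadjusted, beside 0.909% of all genes. All 20 had a value in each library, and 18 were higher in PDGFRα reporter+ cells within number 2 and within number 3, beside 22.1% of all genes. Their median difference was 1.25 within number 2 and 0.74 within number 3, compared with 1.42 and 1.99 for *Osm*. Their summed linear level was 268 and 314 in PDGFRα reporter+ libraries and 105 and 202 in PDGFRα reporter- libraries. By the deposited values *Lyz2* counts most in these sums, with log2 values of 7.65 and 7.88 in PDGFRα reporter+ and 6.27 and 7.25 in PDGFRα reporter- libraries. *Ptprc*, the gene of CD45 against which the cells were sorted, was listed at -1.28 and -0.39 in PDGFRα reporter+ and at -2.30 and -1.22 in PDGFRα reporter- libraries. Of the T cell markers, 4 of 8 had no value (*Cd3e*, *Cd3g*, *Cd8a* and *Trac*) and 1 had a value in all libraries. Of 8 neutrophil markers, *S100a9* and *Ltf* had no value and 1 was listed in all 4 libraries. The part of macrophage RNA in the *Osm* difference was not tested, and in such bulk libraries fewer cells of a type and less RNA per cell cannot be told apart. Of 8 endothelial markers, 7 were lower in PDGFRα reporter+ cells within both numbers, beside 24.8% of all genes, and with limma 0 passed after adjustment and 4 were below 0.05 unadjusted. Their summed linear level was 6.48 and 11.8 compared with 12.8 and 19.7, in which *Cd34* counts most. *Pecam1*, the gene of CD31 against which the cells were sorted, had log2 values of -4.68 and -4.79 in PDGFRα reporter+ and -1.99 and -1.11 in PDGFRα reporter- libraries. *Cdh5* and *Emcn*, chosen with *Pecam1* after their values were seen, had log2 fold changes of -4.26 (SE 0.87) and -3.44 (SE 0.86). Of 6 erythroid markers, 4 had no value and 0 were listed in all libraries. All 12 stromal markers were listed in every library, and the median of their log2 fold changes was -0.06. The populations did not overlap for 4 of the 12, beside 15.7% of all genes, and 3 were below 0.05 unadjusted with limma (*Lum*, log2 fold change 1.83, *Dcn*, 1.39, and *Ctsk*, 0.39), beside 0.909%, and 0 after adjustment. *Pdgfra* itself had log2 values of 7.78 and 7.62 in PDGFRα reporter+ and 7.87 and 7.44 in PDGFRα reporter- libraries.

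*Il6* (chromosome 5, 30013114 to 30019975, plus strand) encodes the founding cytokine of the family. Its log2 values were 2.15 and 3.21 in PDGFRα reporter+ libraries 2 and 3, and 2.86 and 0.60 in PDGFRα reporter- libraries 2 and 3. The lowest value (PDGFRα reporter-) and the highest (PDGFRα reporter+) were both those of number 3. Within number 2, *Il6* was lower in PDGFRα reporter+ cells by 0.72, and within number 3 it was higher by 2.60. The means of 2.68 ± 0.75 and 1.73 ± 1.60 (SD, n = 2) gave a log2 fold change of 0.94 (SE 0.85, limma, adjusted p = 1), smaller than the spread within PDGFRα reporter- cells. Leaving out PDGFRα reporter- library 3 gave -0.19, and leaving out its counterpart numbered 2 gave 2.07. The genes nearest in level had a median SD within a population of 0.203, so that the *Il6* libraries lay further apart than was typical at this level. The 250 bases upstream of *Il6* (chr5:30012864-30013113, plus strand, GRCm38.p6, outside any GENCODE M21 transcript of the gene) are shown because this promoter held 3 of the 5 motifs searched, with matches in capitals.
Il6 upstream: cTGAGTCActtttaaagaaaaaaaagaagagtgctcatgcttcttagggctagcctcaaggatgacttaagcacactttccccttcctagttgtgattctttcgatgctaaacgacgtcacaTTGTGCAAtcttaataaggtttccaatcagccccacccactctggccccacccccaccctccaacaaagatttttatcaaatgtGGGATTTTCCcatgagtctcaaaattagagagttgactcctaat
In order, the capitals mark TGAGTCA (AP-1, 249 to 243 bases before the start), TTGTGCAA (C/EBP, 128 to 121 bases before it) and GGGATTTTCC (NF-kB, 44 to 35 bases before it). A match describes the letters of the window and not binding in these cells.

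*Lif* (chromosome 11, 4257568 to 4272514) encodes leukemia inhibitory factor. It had log2 values of -4.65 and -1.64 in PDGFRα reporter+ libraries 2 and 3, and of -3.62 and -2.84 in PDGFRα reporter- libraries 2 and 3. Both values of number 3 were above both values of number 2, and the PDGFRα reporter+ libraries held the lowest and the highest value. The difference between populations was -1.03 within number 2 and 1.20 within number 3, for a log2 fold change of 0.09 (SE 1.15, limma, adjusted p = 1). Leaving out PDGFRα reporter+ library 3 gave -1.42, leaving out PDGFRα reporter+ library 2 gave 1.59, and leaving out PDGFRα reporter- library 2 gave -0.30.

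*Il11* (chromosome 7, 4772373 to 4782907) encodes interleukin-11. It was the steadiest of the 4 cytokine genes, with log2 values of -0.43 and -0.14 in PDGFRα reporter+ libraries 2 and 3, and of -0.26 and -0.64 in PDGFRα reporter- libraries 2 and 3. The populations overlapped, and the log2 fold change was 0.16 (SE 0.34, limma, adjusted p = 1), with -0.17 within number 2 and 0.50 within number 3. Leaving out PDGFRα reporter- library 3 gave -0.026. In all, 4 of the 10 family genes (*Il6*, *Lif*, *Il11* and *Il11ra1*) differed in direction between the numbers, beside 53.1% of all genes. Within both numbers, 5 were higher in PDGFRα reporter+ cells, beside 22.1% of all genes, and 1 (*Stat3*) was lower, beside 24.8%.

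*Lifr* (chromosome 15, 7090610 to 7197489) encodes the LIF receptor chain. Its log2 values were 1.79 and 2.81 in PDGFRα reporter+ libraries 2 and 3, and 1.19 and 2.75 in PDGFRα reporter- libraries 2 and 3. The libraries numbered 3 were higher in both populations, by 1.29 on average. Between populations the difference was 0.61 within number 2 and 0.05 within number 3, for a log2 fold change of 0.33 (SE 0.65, limma, adjusted p = 1). Leaving out PDGFRα reporter+ library 3 gave -0.17, and leaving out PDGFRα reporter- library 2 gave -0.45.

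*Il11ra1* (chromosome 4, 41760443 to 41769473) encodes the α-receptor of interleukin-11. Its log2 values were 5.13 and 5.78 in PDGFRα reporter+ libraries 2 and 3, and 4.79 and 6.06 in PDGFRα reporter- libraries 2 and 3. Again number 3 was higher in both populations, by 0.96 on average, and the populations overlapped fully, with a log2 fold change of 0.03 (SE 0.50, limma, adjusted p = 1). Leaving out PDGFRα reporter+ library 3 gave -0.30, and leaving out PDGFRα reporter- library 2 gave -0.61. The values of *Il11ra1* are uncertain, because 46.5% of the 50-base words of its transcript also occur in *Gm13305* and 37.8% in *Il11ra2*, and how the authors counted shared reads is not given in the sources used here. *Il11ra2* had log2 values of -0.35 and 1.24 in PDGFRα reporter+ and -0.61 and 1.42 in PDGFRα reporter- libraries, and *Gm13305* had 0.19 and 1.64, and -0.21 and 1.85. Both near copies were thus also higher in number 3. *Ccl27a* overlaps *Il11ra1* on the opposite strand, and whether strand was used in counting is not given in the sources used here.

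*Stat3* (chromosome 11, 100886806 to 100939594, minus strand) encodes the transcription factor that the receptors activate. Its log2 values were 5.59 and 5.81 in PDGFRα reporter+ libraries 2 and 3, and 5.66 and 5.82 in PDGFRα reporter- libraries 2 and 3. The 4 values lay within a narrow range. The log2 fold change was -0.04 (SE 0.16, limma, adjusted p = 1), the smallest SE among the members apart from that of *Osmr*, with -0.07 within number 2 and -0.01 within number 3. Leaving out PDGFRα reporter+ library 2 gave 0.069, and leaving out PDGFRα reporter- library 3 gave 0.04.

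*Socs3* (chromosome 11, 117966079 to 117970336, minus strand) encodes the inhibitor that STAT3 induces. Its log2 values were 6.30 and 5.51 in PDGFRα reporter+ libraries 2 and 3, and 6.24 and 5.34 in PDGFRα reporter- libraries 2 and 3. The libraries numbered 3 were lower in both populations, by 0.84 on average, and the populations differed by 0.06 within number 2 and 0.17 within number 3. The log2 fold change was 0.11 (SE 0.42, limma, adjusted p = 1). Leaving out PDGFRα reporter+ library 2 gave -0.28, and leaving out PDGFRα reporter- library 3 gave -0.34. Among the RefSeq windows of the family, that of *Socs3* was the one with a STAT element, TTCTTAGAA, 154 to 146 bases before the start site of the RefSeq window. That start lies inside the gene, so the element is within the RefSeq span given above and within a GENCODE M21 transcript of *Socs3*. The stretch around it (chr11:117969502-117969530, minus strand, GRCm38.p6) is shown with the element in capitals, because *Socs3* is the STAT3 target of the family.
Socs3 stretch: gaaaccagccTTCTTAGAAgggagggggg
The window of *Lif* held an AP-1 element (TGACTCA). Of 2 windows of *Il11*, the one at the outer start held none of the motifs, and the one at an inner start, inside a transcript of the gene, held an AP-1 element (TGAGTCA). Upstream windows were matched by symbol for 9 of the 10 members.

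The layout of 2 populations by 2 numbers splits the sum of squares of each gene into a part between populations, a part between numbers and a part for an unlike difference in the 2 numbers. The part between populations was 99.5% for *Il6st*, 81.5% for *Osm* and 80.8% for *Osmr*, compared with a median of 9.43% over all genes. The part between numbers was 97.8% for *Socs3*, 92.8% for *Stat3*, 90.4% for *Il11ra1*, 89.9% for *Lifr* and 74.2% for *Lif*, compared with a median of 66.4%. For *Il11* and *Il6* the unlike difference took 79.6% and 68.9%. The largest part was the one between populations in 3 of 10 members (15.7% of all genes), the one between numbers in 5 (65.2%) and the unlike difference in 2 (19.1%). Libraries of the 2 numbers did not overlap for 5 of the 10 family genes, beside 65.2% of all genes. Number 3 was the higher one for 4 of them, beside 36.4% of all genes, and the lower one for *Socs3*, beside 28.8%.

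**Figure D2:**
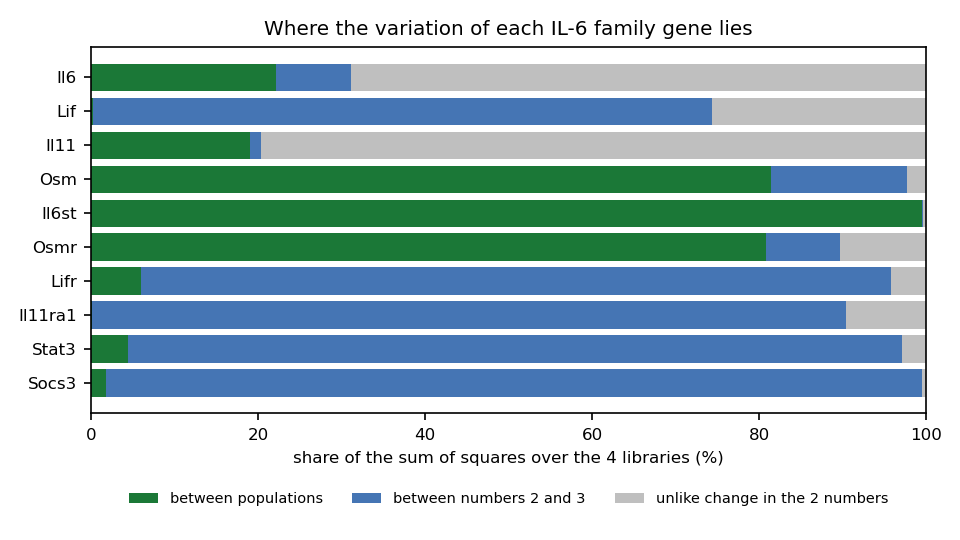
Share of the sum of squares over the 4 libraries (x axis, percent) for each IL-6 family gene: between populations (green), between numbers 2 and 3 (blue) and unlike difference in the 2 numbers (grey). *Il6st*, *Osm* and *Osmr* are mostly green, and *Socs3*, *Stat3*, *Il11ra1*, *Lifr* and *Lif* mostly blue.

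Among 28 other measured genes of the pathway, 1 (*Ebi3*) lay above the 2 SD limit of all log2 fold changes, beside 3.36% of all genes, and 0 lay below the lower limit, beside 2.80%. Of 8 other ligand genes, 5 had a value in all libraries, *Ctf2* and *Il31* had none, and *Il27* was listed in 1 library. *Cntf*, ciliary neurotrophic factor, had log2 values of -0.96 and -0.99 in PDGFRα reporter+ and -0.74 and -0.77 in PDGFRα reporter- libraries and was the 1 ligand gene of the 5 with both PDGFRα reporter+ libraries at the bottom, beside 8.10% of all genes. *Ebi3*, a subunit shared by IL-27 and IL-35, had the largest log2 fold change of these ligands (0.90, SE 0.83), at values from -4.62 to -2.36. The median of the 5 log2 fold changes was -0.02, compared with -0.00 over all genes, and it was 0.12 without PDGFRα reporter+ library 2. Of 5 other receptor genes, all listed in every library, 1 was higher and 4 were lower on average (49.1% of all genes had a log2 fold change above 0), with a median log2 fold change of -0.18. This median turned to 0.16 when PDGFRα reporter+ library 2 was left out and to 0.085 when PDGFRα reporter- library 3 was, and it was -0.66 and -0.83 when PDGFRα reporter+ library 3 and PDGFRα reporter- library 2 were. *Il6ra*, the α-receptor of IL-6, had log2 values of 0.14 and 0.32 in PDGFRα reporter+ and 0.43 and 0.41 in PDGFRα reporter- libraries, both PDGFRα reporter+ values being lower (log2 fold change -0.18, SE 0.27). *Il6st* and *Il6ra*, the chains of the IL-6 receptor, therefore leaned in opposite directions, and in both cases the limma adjusted p was 1.

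Among 7 genes of JAK kinases and STATs, *Jak1* was the one without overlap (15.7% of all genes had none), with log2 values of 5.26 and 5.35 in PDGFRα reporter+ and 5.38 and 5.54 in PDGFRα reporter- libraries (log2 fold change -0.15, SE 0.15). The median log2 fold change of these 7 genes was 0.07, and their range was -0.24 to 0.30. The median was -0.11 when PDGFRα reporter+ library 2 was left out and 0.18 when PDGFRα reporter+ library 3 was. A list of 11 other regulators, not all of them inhibitors, included *Adam10*, *Adam17* and *Ptpn11*. Of the 11, 2 lay entirely above (*Ptpn1* and *Ptpn2*, tyrosine phosphatases) and 2 entirely below (*Cish* and *Pias3*), beside 7.59% and 8.10% of all genes. *Ptpn2*, which dephosphorylates JAK and STAT proteins, had a log2 fold change of 0.42 (SE 0.23), and *Ptpn1* had 3.48 and 3.51 compared with 3.33 and 3.25 (log2 fold change 0.21, SE 0.14). The median of the 11 was 0.11. Leaving out any library brought it near 0, to 0.025 and 0.030 for PDGFRα reporter+ libraries 2 and 3 and to -0.0054 and -0.011 for PDGFRα reporter- libraries 2 and 3. With limma, 0 of the 28 measured genes in these 4 lists passed the threshold of 0.05 after adjustment, and 0 were below it unadjusted.

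**Figure D3:**
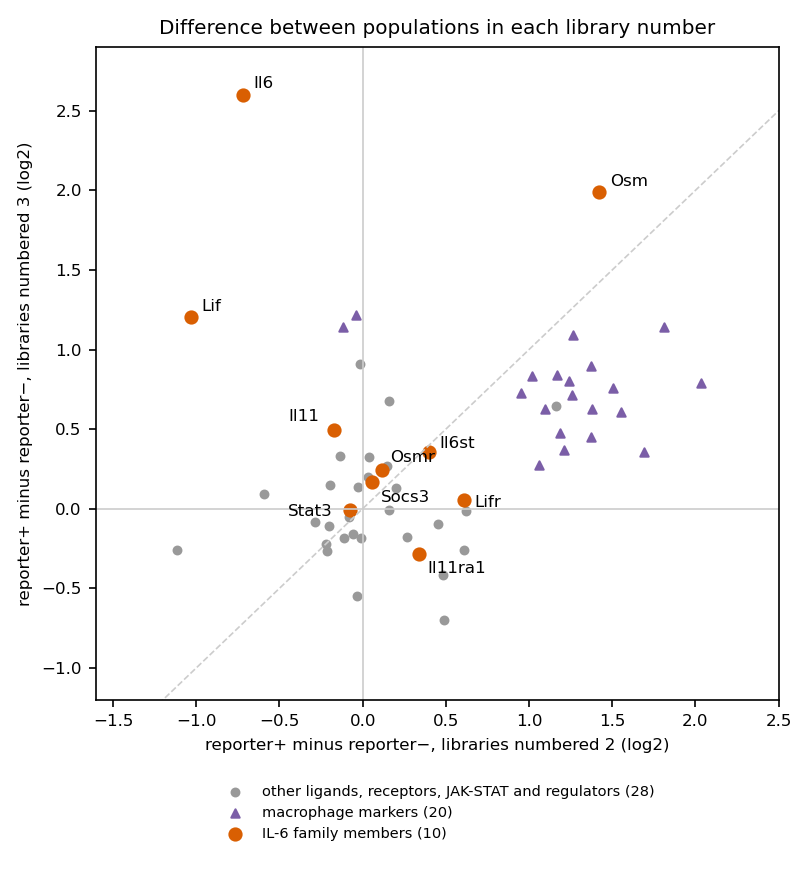
Difference in log2 value between PDGFRα reporter+ and PDGFRα reporter- libraries numbered 2 (x axis) and numbered 3 (y axis), for the 10 IL-6 family genes (orange), the 28 other pathway genes (grey) and the 20 macrophage markers (purple triangles); the dashed line marks equal differences. *Osm* lies to the upper right above the dashed line, 18 of the 20 macrophage markers to the right below it, *Il6st* close to the dashed line, and *Il6* and *Lif* to the upper left.

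Genes known to respond to gp130 and STAT3 included several that were higher in PDGFRα reporter+ cells. All 28 had a value in each library, and 22 had a log2 fold change above 0, compared with 49.1% of all genes. Their median log2 fold change was 0.23. Within numbers 2 and 3, 12 were higher in both, 2 were lower in both and 14 went in opposite directions, beside 22.1%, 24.8% and 53.1% of all genes. The part between numbers was the largest for 18 of the 28, beside 65.2% of all genes. Both PDGFRα reporter+ libraries were on top for 7 of the 28 (*Saa1*, *Saa2*, *Saa3*, *Serpina3n*, *Timp1*, *Bcl6* and *Ccl2*, listed after their values were seen), beside 7.59% of all genes, and at the bottom for 0. With limma, 0 passed after adjustment, while 2 (*Saa2* and *Saa3*) were below 0.05 unadjusted, beside 0.909% of all genes. Results for the serum amyloid genes were known when the list was made, and the list gives no independent evidence of a direction.

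*Saa3*, an acute-phase serum amyloid gene, had log2 values of 6.72 and 8.89 in PDGFRα reporter+ libraries 2 and 3, and of 4.75 and 5.47 in PDGFRα reporter- libraries 2 and 3. All were higher in PDGFRα reporter+ cells and, within each population, in number 3 (log2 fold change 2.70, SE 0.78, limma, adjusted p = 1). *Lcn2*, the iron-binding acute-phase protein lipocalin-2, had 5.72 and 7.22 compared with 4.13 and 6.11 (log2 fold change 1.35, SE 0.84). *Steap4*, a metalloreductase, had 4.72 and 6.17 compared with 3.87 and 5.29 (log2 fold change 0.87, SE 0.69). For *Lcn2* and *Steap4* the populations overlapped, although each was higher in PDGFRα reporter+ cells within both numbers. At the other end, the immediate early gene *Egr1* had 3.84 and 1.75 compared with 4.37 and 2.46 (log2 fold change -0.62, SE 0.96), *Fosl1* had a log2 fold change of -0.29 (SE 0.45) and *Fos* of -0.12 (SE 0.84). *Egr1* and *Fos* were lower in number 3 than in number 2 by 2.00 and 1.72, the direction of *Socs3*. *Junb* and *Zfp36*, chosen after their values were seen, were also lower in number 3, by 1.05 and 1.40. The responding list had no common direction between numbers. Both libraries numbered 3 lay below both numbered 2 for 9 of its 28 genes, beside 28.8% of all genes. They lay above for 9, beside 36.4%. The summed macrophage level given above was higher in both PDGFRα reporter+ libraries, as were the 3 serum amyloid genes, and its part in these values was not tested.

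**Figure D4:**
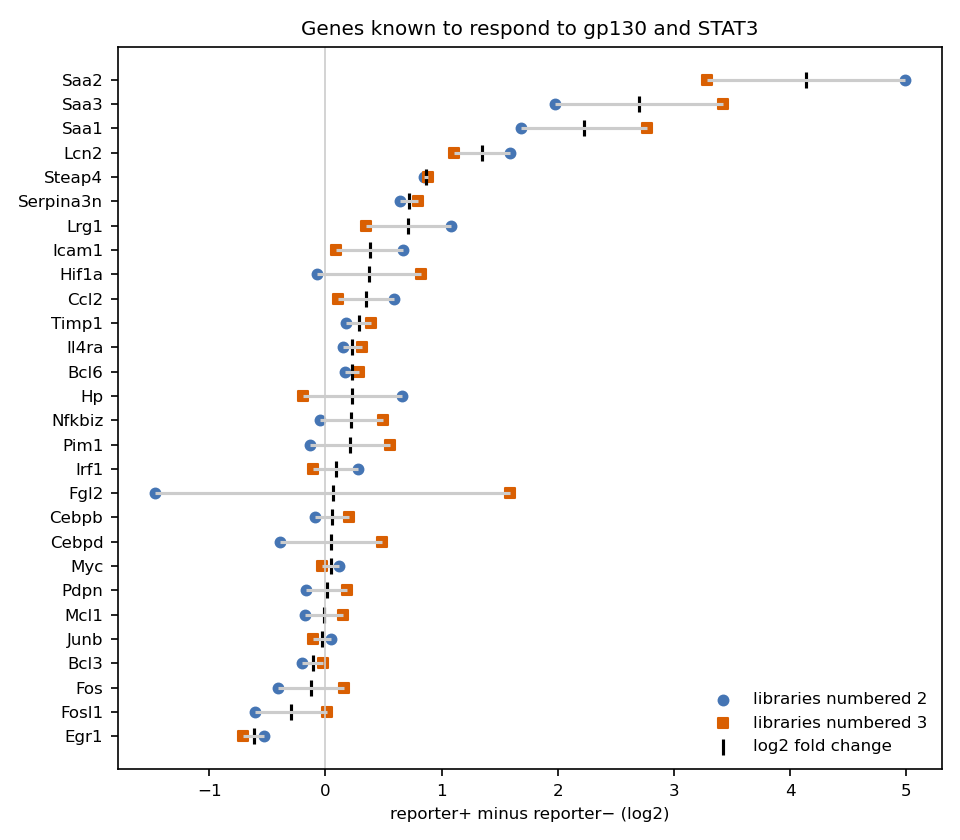
Difference in log2 value between PDGFRα reporter+ and PDGFRα reporter- libraries (x axis) for 28 genes known to respond to gp130 and STAT3 (y axis, ordered by log2 fold change). Circles are libraries numbered 2, squares are libraries numbered 3, and black ticks are the log2 fold change; the serum amyloid genes stand at the top, and *Egr1* at the bottom.

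Genes around *Il6* in the NF-kB response were counted next, in 1 list of inducers, inhibitors and other targets of the response. A median over such a mixture gives no direction for the response. Of 14 listed, 12 had a value in all libraries and *Il1a* and *Il1b*, the interleukin-1 genes, had none. The median log2 fold change was 0.01, with 6 above and 6 below 0, and it ranged from -0.080 without PDGFRα reporter+ library 2 to 0.18 without PDGFRα reporter+ library 3. *Zc3h12a*, whose product degrades *Il6* mRNA, had log2 values of 1.67 and 1.68 in PDGFRα reporter+ and 1.58 and 1.44 in PDGFRα reporter- libraries, and was the 1 gene of the 12 without overlap, beside 15.7% of all genes (log2 fold change 0.17, SE 0.20). *Il1r1*, the interleukin-1 receptor, had a log2 fold change of 0.19 (SE 0.21), *Nfkbia* of 0.18 (SE 0.23), *Rela* of -0.08 (SE 0.28), *Tnfrsf1a* of -0.03 (SE 0.16) and *Ptgs2* of -0.29 (SE 0.56). *Ptgs2*, cyclooxygenase-2, shared the split of *Il6*, with -1.16 within number 2 and 0.59 within number 3. *Tnf*, chosen after its values were seen, had -2.38 and -1.57 in PDGFRα reporter+ and -4.53 and -2.28 in PDGFRα reporter- libraries, a log2 fold change of 1.43 (SE 0.92) with overlapping populations and higher values in PDGFRα reporter+ cells within both numbers. In this list 3 of the 12 were higher within both numbers, beside 22.1% of all genes, and 0 were lower, beside 24.8%.

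Among 10 osteoblast and osteoclast genes commonly read out with this family, 8 had a value in every library, with a median log2 fold change of 0.28. This median was -0.068 when PDGFRα reporter- library 3 was left out, -0.023 when PDGFRα reporter+ library 2 was, and 0.052 over all 10 genes with blanks at the lowest value of the table. *Tnfsf11*, the gene of RANKL, had log2 values of 5.20 and 4.61 in PDGFRα reporter+ libraries 2 and 3, and of 4.89 and 2.40 in PDGFRα reporter- libraries 2 and 3. As for *Il6*, the lowest value was that of PDGFRα reporter- library 3, and the log2 fold change of 1.26 (SE 0.87) was 0.30 within number 2 and 2.22 within number 3. *Tnfrsf11b*, the RANKL decoy receptor, had a log2 fold change of 0.46 (SE 0.64). *Alpl*, alkaline phosphatase, had 1.00 and 1.96 compared with 0.37 and 0.99 (log2 fold change 0.80, SE 0.44) without overlap. With *Ibsp*, bone sialoprotein, chosen after its values were seen, it made 2 of the 8 with both PDGFRα reporter+ libraries on top, beside 7.59% of all genes. *Runx2* (0.01, SE 0.29) and *Col1a1* (-0.12, SE 0.23) had log2 fold changes near 0. *Spp1* (-0.00, SE 0.59) sat at the top value of the scale in both libraries numbered 2 and at 11.07 in both numbered 3. Quantile normalization gives the top gene of each library the same value, so within number 2 no difference in *Spp1* could show. With limma, 0 of the measured genes of the NF-kB and bone lists had an adjusted or an unadjusted p under 0.05.

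Likeness of profile was measured as the Euclidean distance over the 4 libraries after centering each gene on its mean, among the 10223 genes whose mean over the libraries was not below 0. The genes nearest to *Il6* were *Gm32584* (distance 0.669), *Fibin* (0.735) and *Masp1* (0.806), each lowest in PDGFRα reporter- library 3. The genes nearest to *Socs3* were *Snx14* (0.0578), *Parp4* (0.0588) and *Ifi30* (0.0660), each lower in number 3 in both populations. With 4 libraries such distances describe these samples alone.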

How the data were processed

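Total RNA of 2 PDGFRα reporter+ and 2 PDGFRα reporter- periosteal cell libraries was sequenced by the study as stranded paired-end libraries. The authors deposited log2 values, 1 per gene symbol and library, after quantile normalization, with some cells blank (15423 to 15605 genes with a value per library). The submitters' processing notes name bcl2fastq 2.17.1.14, Partek 7.0 and the build GRCm38.p6. The aligner, the counting, the linear unit and the sequencing depth are not given in the sources used here, and no counting error could be given. Headings carry population and number (2 or 3), but the labels count replicates as 1 and 2, so libraries were assigned to populations only. Nothing says that libraries came from separate animals beyond the pools, and p-values measure the spread between these libraries.

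Genes with 4 values were fitted with limma 3.58.1 in R 4.3.3 (lmFit and eBayes with trend, two-sided, no block), with Benjamini-Hochberg adjustment and a threshold of 0.05. The fit was also run on simulated data with independent noise and no difference between the numbers. That run does not show how the fit behaves on these libraries. For a single gene, 2 libraries against 2 allow no exact permutation p below 0.333. Members and lists were chosen with earlier results of these data known. Besides the 10 members, named genes were those of the short pathway lists and, from each longer list, the 3 highest and the 3 lowest log2 fold changes at a mean of at least 0; others are said to have been chosen afterwards. Alternatives were the number as a block, no trend, median centering, a pseudocount of 1, a filter at a mean of 0, blanks at the lowest value and leaving out each library, which unbalances the numbers. Positions and upstream windows are from RefSeq (GRCm38.p6), and overlaps and transcripts from GENCODE M21. Python 3.11.15, pandas 2.3.3 and matplotlib 3.10.9 were used.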

Additional observations from a re-analysis of the deposited data

Results flagged for a closer look

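In 4 family genes the populations differed in opposite directions in the libraries numbered 2 and 3, which 53.1% of all genes also did. The difference within number 3 minus that within number 2 was 3.32 for *Il6*, 2.23 for *Lif*, 0.67 for *Il11* and -0.62 for *Il11ra1* on the log2 scale. With 1 library per population and number, these contrasts were not tested.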

How the results depend on the processing

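With the library number as a replicate block, 29 genes passed 0.05 after adjustment (0 without it), and 913 were below 0.05 unadjusted (131 without it). None of the 29 was a family gene, and in that paired fit 2 of the 10, *Osm* and *Il6st*, were below 0.05 unadjusted (limma adjusted p = 0.698 and 0.739). Libraries with the same number deviated together from their population means (correlation 0.681 across genes), but no label says what the number marks. Without a trend of the variance, 273 genes had an unadjusted p under 0.05, and 941 when the block was added, with 0 after adjustment in the latter fit, so that the 29 calls of the block rest on the trend; 1 family gene, *Osm*, was then under 0.05 in either fit. The count was 62 with the filter on the mean and 262 with blanks at the lowest value. With 1 library left out, it ranged from 135 to 191, and from 0 to 1 among the family genes. Over all alternatives 0 family genes had an adjusted p under 0.05, the smallest being 0.463 (*Osm*, block without a trend). Leaving out 1 library turned the direction of 7 family genes, with log2 fold changes from -0.19 to 2.07 for *Il6*, -1.42 to 1.59 for *Lif*, -0.026 to 0.35 for *Il11*, -0.45 to 1.12 for *Lifr*, -0.61 to 0.66 for *Il11ra1*, -0.15 to 0.069 for *Stat3* and -0.34 to 0.56 for *Socs3*. Leaving out 1 library unbalances the numbers, so the contrast that remains mixes population with number. Within both numbers, *Socs3* and *Lifr* were higher in PDGFRα reporter+ cells and *Stat3* was lower. *Il6*, *Lif*, *Il11* and *Il11ra1* differed in direction between the numbers. The cause of the turns was not tested. *Il6st*, *Osmr* and *Osm* kept their direction under every alternative run. Their PDGFRα reporter+ values all lay above their PDGFRα reporter- values, so leaving out 1 library could not have turned it. The block and trend settings do not alter a log2 fold change, so the kept direction adds no support.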
